A study of Mus musculus with 6 samples.

Results

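The genes studied here encode the pumps that move bile acids and bile lipids out of the hepatocyte. They were Abcb11, Abcb4, Abcc2, Abcg5, Abcg8 and Atp8b1 of the canalicular membrane and Abcc3, Abcc4, Slc51a and Slc51b of the basolateral membrane, 10 genes chosen by name for that role. Every array feature annotated to one of these symbols was taken, which gave 10 features for 9 of the 10 genes, out of 16593 genes with a feature on the array. Abcc4 had none. Of the 9 genes, 8 passed the detection filter, among 8827 genes in all that did, and Slc51a did not.

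Wild-type C57BL/6 mice gave whole-liver total RNA, 3 of them treated with Ad-MafG and 3 with Ad-Control, which the labels also call Ad-CMV. Treatment lasted 5 days in all 6 mice, which were fasted for 4 to 6 h before the livers were taken. Every liver went onto 1 Illumina BeadChip array of its own, so the number of mice and of arrays is the same. The sources used here give neither the age of the mice, the dose of virus nor the promoter that drives MafG. The protein MafG belongs to the small Maf family and regulates transcription in pairs with other factors, among them NRF2.

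Bile forms because hepatocytes pump solutes across the canalicular membrane against a gradient. ABCB11, the bile salt export pump, secretes conjugated bile acids, ABCB4 flops phosphatidylcholine into the canaliculus, and the ABCG5 and ABCG8 half-transporters pair to secrete cholesterol and plant sterols. ABCC2 exports glucuronide and glutathione conjugates such as bilirubin glucuronides, and ATP8B1 flips aminophospholipids to the inner leaflet, which protects the canalicular membrane from bile salts. When bile acids build up, ABCC3, ABCC4 and the heterodimer of SLC51A and SLC51B return them across the basolateral membrane to blood. The bile acid receptor FXR activates Abcb11 and the SLC51 genes, the oxysterol receptor LXR activates Abcg5 and Abcg8, and NRF2 has been tied to several ABCC genes.

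Windows of 250 bases upstream of annotated starts were available for 8 of the 10 genes in the RefSeq promoter table of build GRCm38.p6, and 3 are printed because the pump genes they precede had either the highest or the lowest fold changes or are the textbook FXR target. Each was searched on both strands for 3 strings. The antioxidant response core TGACNNNGC, to which dimers of small Maf and NRF2 bind, is present in 10.2% of the 32851 windows in the table, the Maf half-site TGCTGA in 16.1%, and GGTCANTG, a core of the inverted repeat bound by FXR with RXR, in 3.15%. The last string was shortened by its final base after a first search. Its match in the Abcb11 window thus rests on a string set after that search, and no search with the longer string is reported. The first and second strings can share bases where they adjoin. The Slc51b window (chr9:65422774-65423023, minus strand) held none of the 3. The Abcc2 window (chr19:43782058-43782307, plus strand) held 1 antioxidant response core, in capitals, 98 to 90 bases upstream of the start. The Abcb11 window (chr2:69342617-69342866, minus strand) held the inverted repeat core on the opposite strand, in capitals, 59 to 52 bases upstream. Abcg5 and Abcg8 lie head to head, with 109 bases between their annotated starts, and this interval (chr17:84683012-84683120, plus strand, 45.9% G and C) is printed because it is shared by both subunits of 1 transporter. It held none of the 3 strings, and a longer annotated form of Abcg8 spans it. Of the windows not printed, that of Abcb4 held a Maf half-site, those of Abcc4 held antioxidant response cores and a Maf half-site, and those of Slc51a, Abcg5 and Abcg8 held none of the strings. A match is a description of the letters and not a site shown to be bound.
Slc51b: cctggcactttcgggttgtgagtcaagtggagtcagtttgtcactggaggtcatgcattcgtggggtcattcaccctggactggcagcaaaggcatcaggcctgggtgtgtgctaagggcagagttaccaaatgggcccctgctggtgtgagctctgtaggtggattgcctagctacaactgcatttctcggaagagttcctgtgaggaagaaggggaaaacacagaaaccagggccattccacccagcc
Abcc2: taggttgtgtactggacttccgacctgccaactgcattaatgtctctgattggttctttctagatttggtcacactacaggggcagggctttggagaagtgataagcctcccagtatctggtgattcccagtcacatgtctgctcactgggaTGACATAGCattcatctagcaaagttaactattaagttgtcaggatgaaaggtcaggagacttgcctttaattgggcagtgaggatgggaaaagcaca
Abcb11: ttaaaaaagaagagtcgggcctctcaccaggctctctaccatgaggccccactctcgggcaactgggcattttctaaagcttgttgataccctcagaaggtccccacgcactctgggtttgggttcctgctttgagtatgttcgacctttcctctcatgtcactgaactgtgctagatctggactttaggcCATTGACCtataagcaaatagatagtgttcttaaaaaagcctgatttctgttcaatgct
Abcg5 to Abcg8: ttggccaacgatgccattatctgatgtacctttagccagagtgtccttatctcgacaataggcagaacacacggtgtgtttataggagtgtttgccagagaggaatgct

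Median signals of the arrays were between 182 and 186 in Ad-MafG and between 161 and 180 in Ad-Control. Per array, 12079 to 13042 of 25697 features were detected. The single Mafg feature was lower in Ad-MafG, at 10.32 ± 0.06 in Ad-MafG against 10.86 ± 0.16 in Ad-Control (normalized log2 intensity, SD, n = 3 each; limma adjusted p = 0.0341). The sources used here do not say whether the viral insert contains the sequence this feature detects, so it does not check the labels, and all directions below rest on them. Of 9 hepatocyte markers all were detected and 0 passed the test in either direction (1 had an unadjusted limma p under 0.05). All 9 lay below 0, with a median log2 fold change of -0.19. Their summed level was 165000 to 179000 in Ad-MafG and 181000 to 194000 in Ad-Control. Among them, Alb (5.88 to 7.22 over all arrays) and Tat (5.74 to 6.99) read close to background, against 15.11 to 15.24 for Apoa1 and Ttr. The features of Alb and Tat thus say little about hepatocytes. In whole liver, fewer cells of a type and less RNA per cell cannot be told apart.

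None of the 8 tested export pump genes passed the test between Ad-MafG and Ad-Control livers. Slc51b, the small subunit of the basolateral exporter, came closest, at 2.46-fold higher with an adjusted p of 0.0516. Abcc3, the basolateral conjugate pump, lay 1.24-fold higher and Abcg5, one of the sterol half-pumps, 1.27-fold higher, while both features of Abcc2 lay lower. The bile salt pump Abcb11, the phospholipid pump Abcb4, the sterol half-pump Abcg8 and the flippase Atp8b1 had log2 fold changes within 0.1 of 0.

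By limma's two-sided test with Benjamini-Hochberg adjustment over all 8827 genes and a threshold of 0.05, 0 of the 8 were called higher and 0 lower. In the same fit 9.91% of all tested genes were called, 6.29% higher and 3.63% lower. At an unadjusted p under 0.05 there were 3 of the 8, against 2631 of all 8827 genes. The values of the 3 Ad-MafG livers did not overlap, on the normalized scale, those of the 3 Ad-Control livers for 2 of the 8 genes, Slc51b and Abcc3, whereas 36.2% of all tested genes had such groups. The median log2 fold change was 0.06 over the 8 genes (range -0.42 to 1.30) and -0.02 over all genes. Of the pump genes 6 lay above 0 and 2 below, against 4168 above and 4659 below among all genes.

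**Figure D1:**
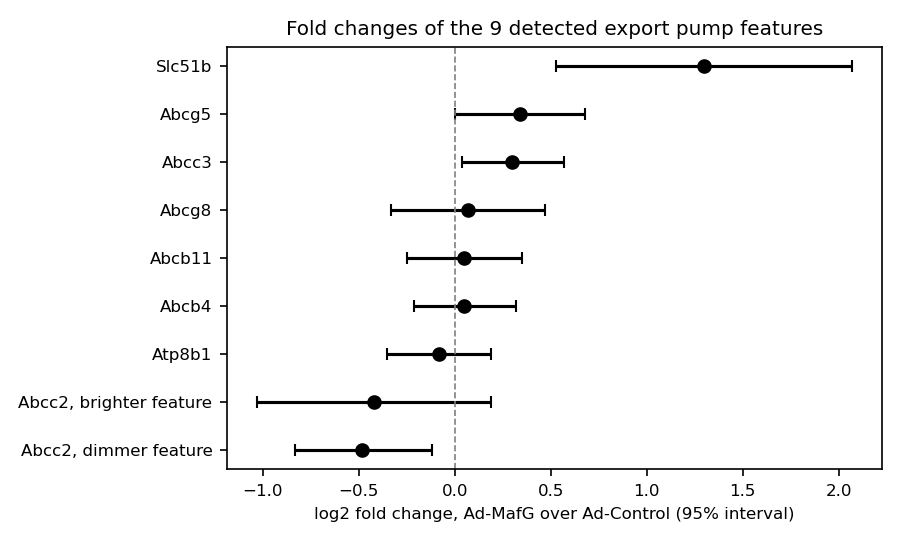
Log2 fold change of Ad-MafG over Ad-Control for the 9 detected export pump features (points), with 95% confidence intervals (bars) and a dashed line at 0. Slc51b stands highest at 1.30, and the intervals of Abcb11, Abcb4, Abcg8, Atp8b1 and the brighter Abcc2 feature span 0.

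Abcb11, the pump for conjugated bile acids, read 11.15, 11.05 and 11.41 in the 3 Ad-MafG livers and 11.06, 11.14 and 11.27 in the 3 Ad-Control livers, as normalized log2 intensity. The groups overlapped, and the highest and the lowest liver of all 6 were both Ad-MafG. Between the groups the log2 difference was 0.05 (SE 0.13, limma adjusted p = 0.829), with a 95% interval of 0.84-fold to 1.27-fold, and without Ad-MafG 3 it was -0.06.

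Abcb4, the phosphatidylcholine floppase, read 13.43, 13.53 and 13.55 in Ad-MafG and 13.43, 13.33 and 13.61 in Ad-Control livers. All 3 Ad-MafG values lay inside the range of the Ad-Control values. Its log2 fold change was 0.05 (SE 0.11, limma adjusted p = 0.792), with a 95% interval of 0.865-fold to 1.24-fold. Its sign turned to -0.08 with median scaling and -0.10 with the authors' scaled values, and was -0.01 without Ad-Control 2.

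Atp8b1, the aminophospholipid flippase of the canaliculus, read 9.96, 9.91 and 9.95 in Ad-MafG and 10.17, 10.03 and 9.86 in Ad-Control livers. The Ad-MafG values again lay inside the Ad-Control range. A log2 fold change of -0.08 (SE 0.11) gave a limma adjusted p of 0.664, with a 95% interval of -0.34 to 0.18.

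Abcc2, the canalicular pump for conjugates, was covered by 2 features. The brighter one read 9.89, 10.33 and 11.02 in Ad-MafG and 10.86, 10.86 and 10.79 in Ad-Control livers. The Ad-Control livers lay close together, whereas the Ad-MafG livers spread on both sides of them, with SDs of 0.57 in Ad-MafG and 0.04 in Ad-Control (n = 3 each). On this feature the log2 fold change was -0.42 (SE 0.26, limma adjusted p = 0.32). It was -0.16 without Ad-MafG 1 and -0.73 without Ad-MafG 3, and 6.25% of all tested genes had a larger residual SD in the fit of all 6 arrays. The dimmer feature read 8.51, 8.53 and 8.80 in Ad-MafG and 9.09, 8.86 and 9.33 in Ad-Control livers. On this normalized scale every Ad-MafG liver lay below every Ad-Control liver, the nearest pair being 8.80 and 8.86. The non-normalized signal of this feature was 552, 535 and 646.4 in Ad-MafG and 556.2, 598.1 and 671 in Ad-Control livers, and there the groups overlapped. That signal is not adjusted for the higher median signals of the Ad-MafG arrays. In the authors' scaled values, 359.1, 361.5 and 441.1 in Ad-MafG and 513.9, 441.7 and 584.6 in Ad-Control livers, the groups just missed overlap. Tested feature by feature, the dimmer feature's log2 fold change of -0.48 (SE 0.15) had a limma adjusted p of 0.0867. The authors' deposited table gives this feature mean scaled intensities of 387.2 in Ad-MafG and 513.4 in Ad-Control, with a difference score of -8.7, and the brighter one a score of -0.5. Both features thus had the same sign, and neither passed the test.

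Abcg5 and Abcg8, whose starts flank the 109-base interval printed above, encode both subunits of the sterol pump. Abcg5 read 13.02, 12.70 and 13.21 in Ad-MafG and 12.56, 12.71 and 12.63 in Ad-Control livers. A pair of the Ad-MafG livers lay above all Ad-Control livers, and Ad-MafG 2 lay just below the highest of them. In the non-normalized signal, 8859.8, 7123.7 and 9997 in Ad-MafG and 5340.8, 6921.2 and 6142.1 in Ad-Control livers, the groups did not overlap. That signal is not adjusted for the higher median signals of the Ad-MafG arrays. In the authors' scaled values, 7715.2, 6493.2 and 8590.6 in Ad-MafG and 6231.3, 6522.2 and 6416.4 in Ad-Control livers, the groups overlapped. On the normalized scale Abcg5 had a log2 fold change of 0.34 (SE 0.14, limma adjusted p = 0.164). Abcg8 read 11.40, 11.03 and 11.60 in Ad-MafG and 11.09, 11.27 and 11.45 in Ad-Control livers, and these groups overlapped, with Ad-MafG 2 the lowest of all 6. Here the log2 fold change was 0.07 (SE 0.17, limma adjusted p = 0.82), and it was -0.06 without Ad-MafG 3 and -0.02 without Ad-Control 1. Taken within each array, Abcg5 minus Abcg8 was higher in every Ad-MafG liver than in any Ad-Control liver, by 0.27 on the log2 scale between group means. The exact two-sided permutation p was 0.1, the smallest that 3 livers against 3 can give, and 0.133 after adjustment over the 4 pairs of pump genes compared in this way.

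**Figure D2:**
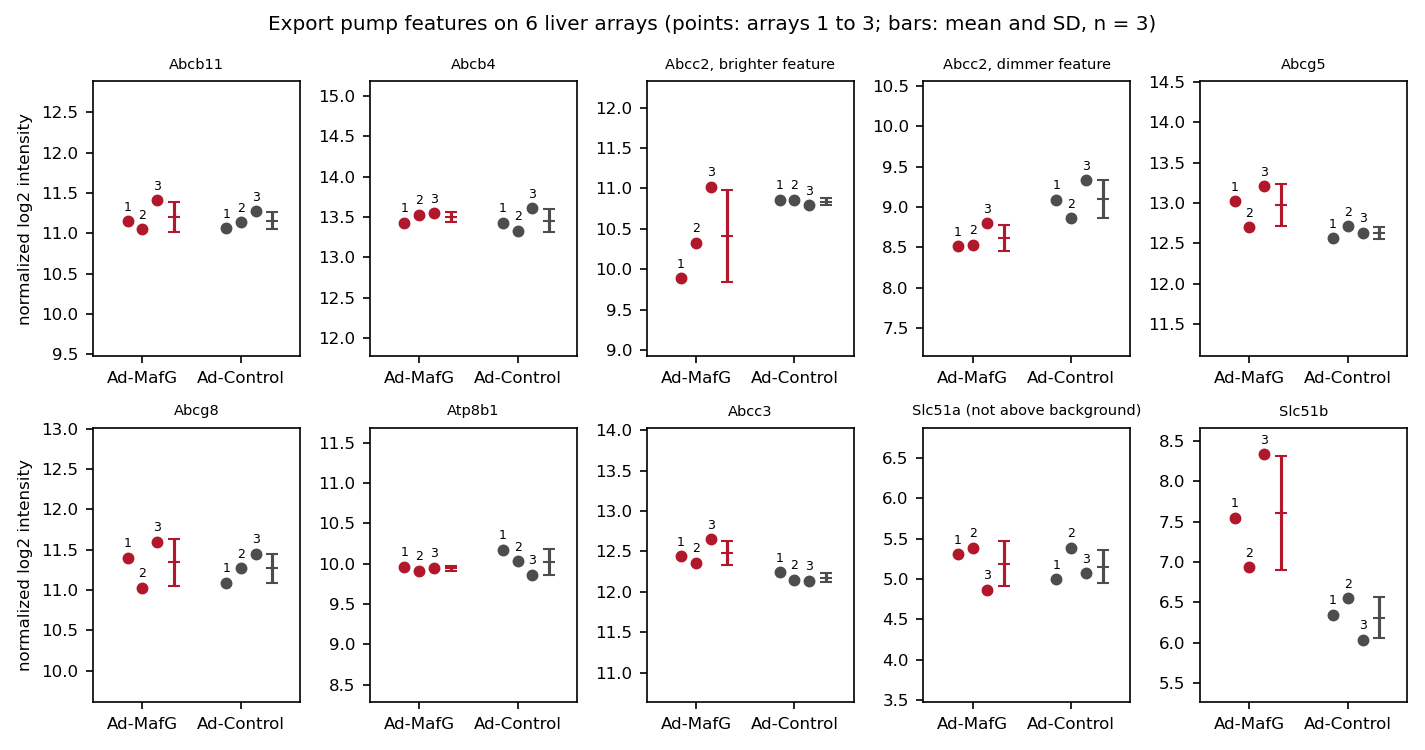
Normalized log2 intensity of the 10 export pump features (1 panel each, y axis) in the Ad-MafG (red, left) and Ad-Control (grey, right) livers. Numbered points are arrays 1 to 3 of a group and bars are mean and SD (n = 3); every panel spans the same number of log2 units. Slc51b, Abcc3 and the dimmer Abcc2 feature are those with groups that do not overlap on this scale.

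Slc51b encodes the small subunit that the basolateral exporter needs to reach the membrane. Its non-normalized signal was 347.4, 267.2 and 507.1 in Ad-MafG and 185.9, 224.3 and 178.2 in Ad-Control livers. Every Ad-MafG liver lay above every Ad-Control liver, and Ad-MafG 3 was the highest. All 6 arrays detected it, with detection p-values of 0 in each Ad-MafG liver and of 0.0113, 0.00627 and 0.0363 in the Ad-Control livers, which places the Ad-Control signal close to background. After background removal and normalization the values were 7.55, 6.94 and 8.34 in Ad-MafG and 6.35, 6.55 and 6.04 in Ad-Control livers. On that scale the log2 fold change was 1.30 (SE 0.33, limma adjusted p = 0.0516), with a 95% interval of 1.43-fold to 4.22-fold. Of all tested genes 1.27% had a higher log2 fold change, and 1.95% had a larger residual SD. The authors' deposited table gives mean scaled intensities of 203.3 in Ad-MafG and 71 in Ad-Control, with a difference score of 5.5.

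Over 18 other settings the adjusted p of Slc51b lay between 0.0339 and 0.137, and it was below 0.05 in 8 of them. The log2 fold change was above 0 in all 18 and ranged from 0.67 with no background correction to 1.63 without Ad-MafG 2. It was 0.93 without Ad-MafG 3.

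**Figure D3:**
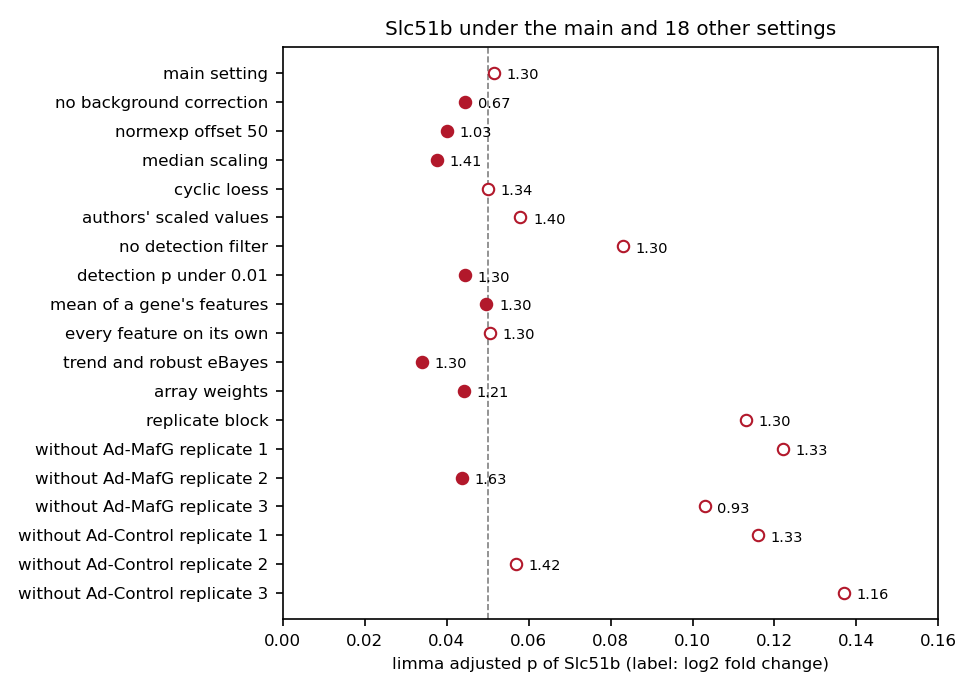
Limma adjusted p of Slc51b (x axis) under the main and 18 other settings (rows), with the log2 fold change of Ad-MafG over Ad-Control printed beside each point, a dashed line at 0.05 and filled points below it. The points run from 0.0339 to 0.137 and 8 are filled.

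Slc51a encodes the large subunit of the same exporter. Its signal was 168.6, 174.1 and 140.4 in Ad-MafG and 137.3, 168.6 and 144.6 in Ad-Control livers. None of the 6 arrays detected it, with detection p-values from 0.103 to 0.406, so no level or fold is given for this partner of Slc51b, and the pair of them, 1 of the 4 compared within arrays, is not read further.

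Abcc3 exports glucuronides and bile acids to blood. It read 12.44, 12.36 and 12.65 in Ad-MafG and 12.24, 12.15 and 12.14 in Ad-Control livers. The groups did not overlap. Abcc3 had a log2 fold change of 0.30 (SE 0.11, limma adjusted p = 0.119), with a 95% interval of 1.03-fold to 1.48-fold, and 17.8% of tested genes had a higher one. In the authors' deposited table its mean scaled intensity is 5451 in Ad-MafG and 4620.8 in Ad-Control, with a difference score of 12.2. Within each array, Abcc3 minus the brighter Abcc2 feature was higher in every Ad-MafG liver than in any Ad-Control liver, by 0.72 between group means (exact two-sided permutation p = 0.1, adjusted 0.133). Abcb11 minus Abcb4, by contrast, differed by 0 between group means (exact two-sided permutation p = 1).

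Residual SDs pool the spread within both groups and so do not give that of the Ad-MafG livers alone. They were 0.53 for Slc51b, 0.40 for Abcc2 and 0.11 to 0.24 for the other pump genes, against a median of 0.17 over all tested genes. Within the Ad-MafG group, the livers did not read alike across the pumps. Ad-MafG 3 was the highest of its group for 7 of the 8 tested pump genes (87.5%), and Ad-MafG 2 the lowest for 6 (75%). Among all tested genes the shares were 35.7% and 32.6%, and among the genes called higher 66.3% and 46.1%. The same livers stood in the same places for 15 and 12 of the 16 tested genes of the NRF2 antioxidant response. Of those 16 genes 11 were called higher and 0 lower, against 6.29% and 3.63% of all tested genes, with a median log2 fold change of 1.13. The count called higher was 2 of 14 tested without Ad-MafG 1, 7 of 13 without Ad-MafG 2, 6 of 14 without Ad-MafG 3, 6 of 15 without Ad-Control 1, 11 of 16 without Ad-Control 2 and 7 of 15 without Ad-Control 3. The 11 include the reductase gene Cbr3 (log2 fold change 5.13) and the glutathione transferase genes Gstm2 (1.30) and Gstm3, the last at least 11.7-fold higher because its feature was not above background in Ad-Control. Gpx2, also among the 11 and named for the same limit, was at least 3.93-fold higher. Gstm3 and Gpx2 passed the filter only through the Ad-MafG arrays, so their calls are not independent of the filter and add no support to the count. Neither was tested when 1 of those arrays was left out. The order of the Ad-MafG livers was noticed after the values were seen and is a description, with no test.

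Genes that work with the pumps were set beside them. The list counts from here on stand beside 6.29% of all tested genes called higher and 3.63% called lower. Among 10 tested chaperones, scaffolds and traffic genes 1 was called higher and 0 lower. Ezr, which encodes ezrin, a linker of membrane proteins to actin, rose, with values of 7.76, 7.60 and 8.0 in Ad-MafG and 7.14, 7.37 and 7.08 in Ad-Control livers (log2 fold change 0.59, SE 0.14, limma adjusted p = 0.0436). With 1 array left out Ezr passed only without Ad-Control 2. Tmem30a, which encodes the subunit that ATP8B1 needs to leave the endoplasmic reticulum, read 9.56, 9.41 and 9.28 in Ad-MafG and 9.75, 9.90 and 9.99 in Ad-Control livers. These groups did not overlap, as was so for 36.2% of all tested genes. The log2 fold change of -0.46 (SE 0.12) did not pass the test (limma adjusted p = 0.0516). Of 7 other canalicular secretion genes tested, 0 were called in either direction and 1, Pctp, had an unadjusted limma p under 0.05. For Pctp, a cytosolic phosphatidylcholine carrier, the value was -0.51 (limma adjusted p = 0.0516).

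Other efflux pumps outside the bile acid set gave 0 called higher and 1 lower of 4 tested. Abcc6, a relative of Abcc2 and Abcc3, fell by 0.61 on the log2 scale (SE 0.13, limma adjusted p = 0.0349), and did not pass without Ad-MafG 1, Ad-MafG 3, Ad-Control 1 or Ad-Control 3 (adjusted p up to 0.111). The LXR target list, to which Abcg5 and Abcg8 also belong by function but in which they were not counted, gave 1 higher and 0 lower of 5 tested. Pltp, the phospholipid transfer protein, rose (log2 fold change 1.27, SE 0.29, limma adjusted p = 0.04), and the cholesterol pump gene Abcg1 had 0.82 (adjusted p = 0.0713), whereas the lipogenic regulator Srebf1 had -0.34. Pltp passed without Ad-Control 1 but with no other array left out (adjusted p up to 0.133). The median of these 5 was 0.

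On the uptake side 0 of 5 carriers were called higher and 1 lower, and all 5 had log2 fold changes below 0, with a median of -0.31, where the 9 hepatocyte markers also all lay below 0. The part of the hepatocyte markers' shift in the carriers' values was not tested. The 1 called was Slc10a1, the main sodium-dependent importer of conjugated bile acids, at -0.69 (limma adjusted p = 0.0437). With 1 array left out it passed only without Ad-Control 2, and with median scaling 0 of the 5 carriers were called. Of 9 tested sensors and regulators 0 were called higher and 2 lower, the xenobiotic receptor Nr1i3 and the dimer partner Rxra, with a list median of -0.38. Nr1i3 passed with every array left out in turn and Rxra with none, nor with median scaling (adjusted p = 0.114). Nr1h4, which encodes FXR, had -0.38 (adjusted p = 0.0621). Of 15 bile acid synthesis genes 1 was called higher and 1 lower, with a median of -0.07. These were Acox2 and Slc27a5, each of which passed only without Ad-Control 2 when 1 array was left out, and Acox2 did not pass with median scaling (adjusted p = 0.0626). The export pumps had 0 and 0 of 8, with a median of 0.06. These lists differ in size and their difference was not tested.

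**Figure D4:**
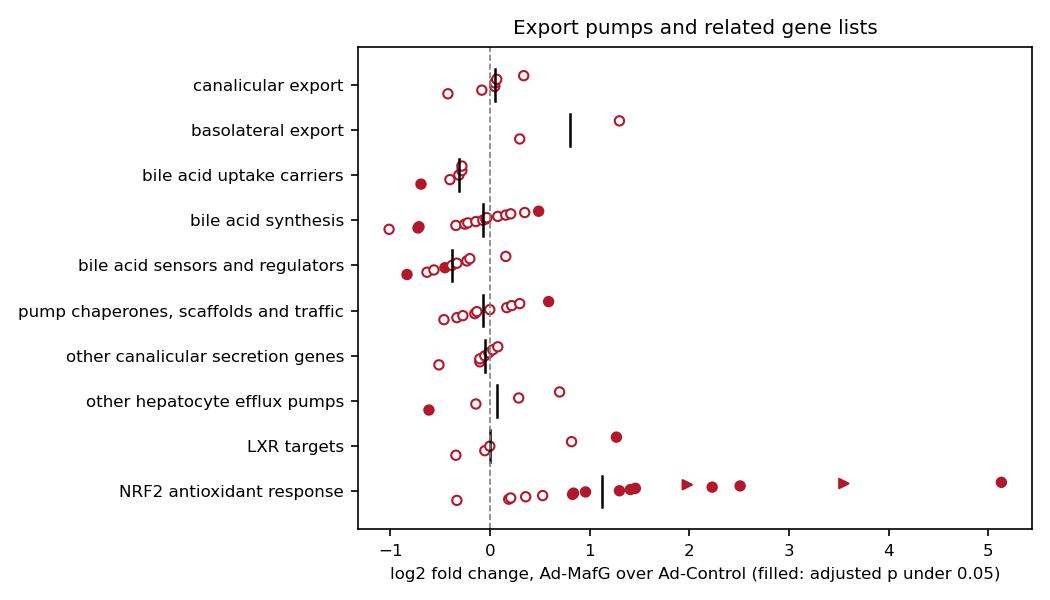
Log2 fold change of Ad-MafG over Ad-Control (x axis) for every tested gene of the export pumps and of 8 related lists (rows; points are genes, filled where the limma adjusted p was under 0.05, black bars are list medians). Triangles mark lower bounds of genes not above background in Ad-Control. All export pump points are open, and the uptake carriers all lie below 0.

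Markers of other cell types were read beside the pumps, since SLC51 and ABCC3 are also made by cells of the bile ducts. Of 6 cholangiocyte markers with a feature 3 were detected and 0 called in either direction by limma (0 also at an unadjusted p under 0.05). Their summed level was 221 to 244 in Ad-MafG and 249 to 284 in Ad-Control, and the defining keratins Krt19 and Krt7 were below the detection filter. Of 9 Kupffer cell and macrophage markers 5 were called higher and 0 lower, with a summed level of 23500 to 26300 in Ad-MafG and 12000 to 15500 in Ad-Control. The 5 were the complement genes C1qa, C1qb and C1qc, Adgre1 and Cd14. The 4 others, named here after their values were seen, include markers of resident Kupffer cells, with log2 fold changes of -1.06 for Marco (limma adjusted p = 0.101), -1.48 for Timd4 (0.249), 0.27 for Clec4f (0.355) and 0.24 for Vsig4 (0.462). Every Ad-MafG liver lay below every Ad-Control liver for Marco, and 36.2% of all tested genes had groups that did not overlap. The count called higher was 4 without Ad-MafG 1, 2 without Ad-MafG 2 (with 1 lower) and 2 without Ad-MafG 3. It was 5 without Ad-Control 1 or Ad-Control 2 and 3 without Ad-Control 3. Of 10 stellate cell and fibroblast markers 4 were called higher and 0 lower, with 15200 to 17900 in Ad-MafG and 13200 to 15100 in Ad-Control. Col1a2, among the 4, was not above background in Ad-Control (at least 1.61-fold higher). It passed the filter only through the Ad-MafG arrays, so its call is not independent of the filter and adds no support to the count. It was not tested when 1 of those arrays was left out. For this list the count called higher was 0 of 9 tested without Ad-MafG 2 and 1 of 9 without Ad-MafG 1 or Ad-MafG 3. It was 1 of 10 without Ad-Control 1 or Ad-Control 3 and 3 of 10 without Ad-Control 2. Called were 0 of 6 tested markers of endothelium, 0 of 4 of T and NK cells, 0 of 1 of B and plasma cells and 0 of 3 of neutrophils. At an unadjusted limma p under 0.05 there were 1 of endothelium, Lyve1, and 1 of neutrophils, S100a8. With 1 array left out, any of these were called only without Ad-Control 2. The count called higher was then 1 of 6 for endothelium, 2 of 4 for T and NK cells and 1 of 3 for neutrophils. Of 2 tested erythroid markers 1 was called, against 9.91% of all tested genes. This was Alas2, which fell, whereas the other, Hba-a1, lay above 0 (log2 fold change 0.4). With 1 array left out, 0 erythroid markers were called lower without Ad-MafG 1, Ad-MafG 3 or Ad-Control 1. The part of these cells in the values of Slc51b and Abcc3 was not tested.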

How the data were processed

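Per the labels' protocols, QIAzol and an RNeasy kit were used to extract total RNA, which was amplified into biotin-labelled cRNA. The deposited files give, per the file headers, a non-normalized bead intensity and a detection p-value for each feature and array. A further table by the authors holds scaled intensity values, and another holds group means with a signed difference score, for which the sources used here give no error model. All arrays lay on 1 slide, and the files name no genome build.

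Values were computed with limma 3.58.1 in R 4.3.3 from the non-normalized table. Normexp, fitted through the detection p-values, removed background, with an offset of 16, and quantile normalization and log2 followed. Kept were the 12893 of 25697 features detected (p under 0.05) on 3 or more of the 6 arrays, and the brightest stood for its gene. Platform annotation gave 23978 features 1 symbol, 0 several and 1719 none. Groups were compared by lmFit and eBayes with Benjamini-Hochberg adjustment over 8827 genes, checked on simulated data. For a gene undetected in 1 group the fold is a bound, computed against that group's own value or, where higher, the faintest detected signal on each array. A summed level adds the normalized values of a list on the linear scale.

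The rule for naming genes was all 10 pump genes with every feature and, of each further list, up to 4 tested members with the smallest unadjusted p. The pump genes, lists, pairs and strings were chosen with earlier results of these data known. Alternatives covered background, offset, normalization, source table, filter, choice of feature, variance model, array weights, the replicate block and leaving out each array before normalization.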

Additional observations from a re-analysis of the deposited data

How the results depend on the processing

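No export pump gene was called lower under any of 18 alternatives, and the count called higher was 0 with all arrays and the reported settings. It was 1, Slc51b, with no background correction, an offset of 50, median scaling, detection p under 0.01, the mean of a gene's features, trend and robust eBayes or array weights, and 0 to 1 with 1 array left out. The log2 fold change of Slc51b was then 0.67 (limma adjusted p = 0.0445) with no background correction, 1.03 (0.04) with the offset of 50, 1.41 (0.0375) with median scaling, 1.30 with detection p under 0.01 (0.0445), with the feature mean (0.0497) or with trend and robust eBayes (0.0339), and 1.21 (0.0441) with array weights. With 1 array left out it ranged from 0.93 to 1.63 and was called without Ad-MafG 2 (0.0438). The 7 other tested pump genes were called in none of their alternatives. Abcb4 had -0.08 with median scaling and -0.10 with the authors' scaled values. With 1 array left out, Abcb4 reached -0.01 (without Ad-Control 2) and up to 0.13, Abcb11 -0.06 (without Ad-MafG 3) and up to 0.13, and Abcg8 -0.06 (without Ad-MafG 3), -0.02 (without Ad-Control 1) and up to 0.22. Abcc2 ranged from -0.73 to -0.16 over 19 alternatives, one of them, its dimmer feature, added after the data were seen. The count of all genes called, 875, was 1322 with no background correction, 1319 with trend and robust eBayes and 115 to 1184 with 1 array left out, and the count of called genes lower in the other lists, 5, was 8 with no background correction. The cause was not tested. Fitting the replicate number as a replicate block gave 141 calls over all genes and 1.30 (adjusted p = 0.113) for Slc51b. The deviations of same-numbered arrays of the 2 groups from their group means correlated at 0.04, -0.14 and -0.12. Arrays of unlike number correlated at -0.06 to 0.16. The sources used here give no pairing of the mice, and correlations this few cannot show whether there was one. Signal over background limits Slc51b, near background in Ad-Control, and Slc51a, undetected on all 6 arrays.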
